A study of Homo sapiens with 8 samples.

Results

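The genes described here are those of the ATF4 programme in the 2 glioblastoma lines studied: ATF4 and its partner factors, their feedback and effector targets, the enzymes that make serine, asparagine and proline, the cytosolic tRNA synthetases and a tRNA exporter. They were chosen by name, as 32 listed gene symbols to be found in the deposited expression table. Of the 32, 29 had a row among the 18787 gene symbols of the table, and all 29 were among the 14282 genes tested. SHMT2, MTHFD2 and ALDH1L2, which belong to mitochondrial one-carbon metabolism, are not analysed here.

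T98 and U87 are established human glioblastoma cell lines. RNA was sequenced 72 h after transfection, with Lipofectamine RNAiMAX, of an siRNA against LKB1 or of a control siRNA, which gave 4 groups of 2 libraries: T98 with LKB1 siRNA, T98 with control siRNA, U87 with LKB1 siRNA and U87 with control siRNA. LKB1, encoded by STK11, is a kinase and tumour suppressor that activates AMPK and related kinases. All 4 groups went through transfection, and no untransfected cells were analysed here. How many siRNAs were used, and their sequences, the sources used here do not give. Nothing says that the duplicates came from separate transfections, so p-values measure only how far these samples vary, and that may be technical variation.

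When cells lack amino acids or accumulate unfolded proteins, kinases phosphorylate the initiation factor eIF2, general translation falls, and the ATF4 mRNA is translated preferentially. ATF4 is a leucine zipper transcription factor. Together with C/EBP partners it binds a composite promoter element and raises genes for amino acid import and synthesis, tRNA charging, and feedback on the pathway itself. Because much of this control acts on translation of ATF4, its mRNA level is only part of the picture, and mRNA is all that was measured here.

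The composite element read TGATGNAA, where N is any base, in the search made here, on both strands, from 250 bases before to 50 bases after each gene start in the RefSeq annotation of GRCh38.p14. Of the 29 measured genes, 23 matched a promoter entry, and 8 of those 23 held the motif, against 3.67% of 27305 promoters. The form TGATGCAA was in 7 of the 23 and in 0.923% of all promoters, and the form TGATGAAA in 1 of the 23 and in 1.1% of all promoters. Both forms are contained in TGATGNAA. A match is a description of letters and not a measured binding site. The 8 windows are shown because most of the matches sit in tRNA synthetase genes. Most of the genes that rose after LKB1 knockdown are of other roles. Of those, EIF4EBP1 in T98 and PYCR1 in U87 had no promoter entry and were not searched. PSPH, NUPR1, YARS and LARS had no entry either. Each window is written on the strand that reads the motif, 5′ to 3′, with the motif in capitals.

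ASNS, chr7:97872458-97872487, same strand as the gene: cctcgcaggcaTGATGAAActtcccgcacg
CHAC1, chr15:40953251-40953280, opposite strand: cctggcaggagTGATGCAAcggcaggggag
AARS, chr16:70289675-70289704, opposite strand: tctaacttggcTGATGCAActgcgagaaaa
CARS, chr11:3057407-3057436, opposite strand: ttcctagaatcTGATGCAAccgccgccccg
IARS, chr9:92293692-92293721, opposite strand: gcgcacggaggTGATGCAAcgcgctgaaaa
MARS, chr12:57488053-57488082, opposite strand: gaatccctcgcTGATGCAAccggaaccggc
NARS, chr18:57621804-57621833, same strand as the gene: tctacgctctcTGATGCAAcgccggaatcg
TARS, chr5:33440956-33440985, opposite strand: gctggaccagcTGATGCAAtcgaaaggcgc

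The 6 synthetase matches comprise 5 copies on the strand opposite to the gene and 1, in NARS, on the same strand. In MARS, IARS and CARS the motif began 4, 13 and 2 bases before the gene start, in gene direction, and in TARS and NARS at bases 3 and 15, counted from 1 at the start. In AARS it lay 187 bases before the start, in CHAC1 209 bases before and in ASNS 68 bases before. Of these 8 genes, CHAC1 and ASNS rose after LKB1 knockdown in T98, against 8.48% of all genes tested. TRIB3, PSAT1 and PHGDH also rose there, and their promoters held no match in the stretch searched. An element outside that stretch, or one of other letters, was not searched for. None of the 8 passed in U87 with limma, against 5.29% of all genes that rose and 5.91% that fell. PYCR1, the only member that passed there, was not searched.

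The depth behind the values ranged from 25223747 to 38019174 reads per library. The lowest count of any member in a library was 91 reads, for CHAC1, and the highest 17958, for IARS. STK11 had 339.9 and 587.6 in the T98 LKB1 siRNA libraries, against 1999 and 2041 in the T98 control libraries, and 360.7 and 384.6 in the U87 LKB1 siRNA libraries, against 2445 and 2041 in the U87 control libraries, all on the deposited normalised scale. It fell by 2.17 in T98 and fell by 2.58 in U87 on the log2 scale (limma, adjusted p = 0.00254 and 0.00195), and both LKB1 siRNA libraries of each line were far below both controls. The STK11 call was lost in both lines without the filter on low values (adjusted p = 0.136 in T98 and 0.107 in U87), in T98 without a lane term (0.0824) or without either U87 lane 2 library (0.11 without the control, 0.106 without LKB1 siRNA), and in U87 without any 1 U87 library (0.0946 to 0.353). Of the 7 glial and glioma markers, SOX2 and S100B were at or near 0 in every library (3.48 at most) and GFAP did not exceed 50.7, while VIM and CD44 were abundant. The summed level of these 7 genes was 71457 to 126114 in T98 LKB1 siRNA and 88908 to 127278 in T98 control libraries, and 191378 to 280604 in U87 LKB1 siRNA and 213915 to 349119 in U87 control libraries. Of 7 markers of other cells, PTPRC (9.63 at most) and ALB (4.81 at most) were near 0, and only CD68 exceeded 100 in any library.

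Column headers of the table give a sequencing lane for each library. Each group had 1 library on lane 2, and the other on lane 4 in T98 or lane 5 in U87. Lane and duplicate cannot be told apart. Over all genes, the SD of the log2 difference between the duplicates of a group was 0.86 to 0.89, which is more than the 0.54 to 0.79 between LKB1 and control siRNA on 1 lane of 1 line. Each knockdown effect below is therefore a log2 fold change of LKB1 siRNA over control siRNA taken within lanes, on log2 of the value plus 1, from a limma fit over all 14282 genes with a lane term. The threshold is an adjusted p of 0.05.

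After LKB1 knockdown in T98, 6 of the 29 genes rose and none fell, against 8.48% of all genes tested that rose and 7.33% that fell. The 6 make up 20.7% of the members. They were the serine synthesis enzymes PHGDH and PSAT1, the asparagine synthetase ASNS, the glutathione-degrading enzyme CHAC1, the ATF4 inhibitor TRIB3 and the translational repressor EIF4EBP1. The median log2 fold change over the 29 genes was 0.26, against 0.02 over all genes. In U87 only the proline enzyme PYCR1 rose and none fell, against 5.29% and 5.91% of all genes, and the median over the 29 genes was 0.08, against 0 over all genes. At an unadjusted p under 0.05 the members counted 11 higher and 2 lower in T98, and 2 higher and 0 lower in U87. Some cell markers moved in T98 as well: CD68 fell by 0.63, the myelin gene MBP fell by 1.31 and the progenitor marker NES rose by 1.01 (limma adjusted p = 0.0287, 0.0491 and 0.018). Both MBP (25.6 at most) and NES (123 at most) were low in the T98 libraries. NES also differed by 1.84 between the T98 lanes, and it was the only call among 5 tested glial and glioma markers (3 positive and 2 negative). The 7 markers of other cells summed to 556 to 642 in T98 LKB1 siRNA libraries, against 744 to 1178 in T98 controls, and all 4 of them that were tested were negative. Their part in the result was not tested. These are bulk samples, in which fewer cells of a state and less RNA per cell cannot be told apart.

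These calls depend on the lane term and on single libraries. Without a lane term, limma called 0 of the 29 genes in either line (2 in T98 and 0 in U87 at an unadjusted p under 0.05), against 0.028% and 0.056% of all genes, which is 4 and 8 of 14282. Without the filter on low values it called none in either line (12 and 2 unadjusted). In T98 the member calls were lost without the control or the LKB1 siRNA library of lane 2, which leaves the smaller lane 4 effects. They were also lost without any 1 U87 library, which leaves the T98 fold changes as they are. Calls over all genes fell steeply in each of these cases too. Without the T98 control library of lane 4, 8 members rose and 1 fell, against 26.8% of all genes called, and without the LKB1 siRNA library of lane 4, 10 rose and 1 fell, against 27.5%.

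**Figure D1:**
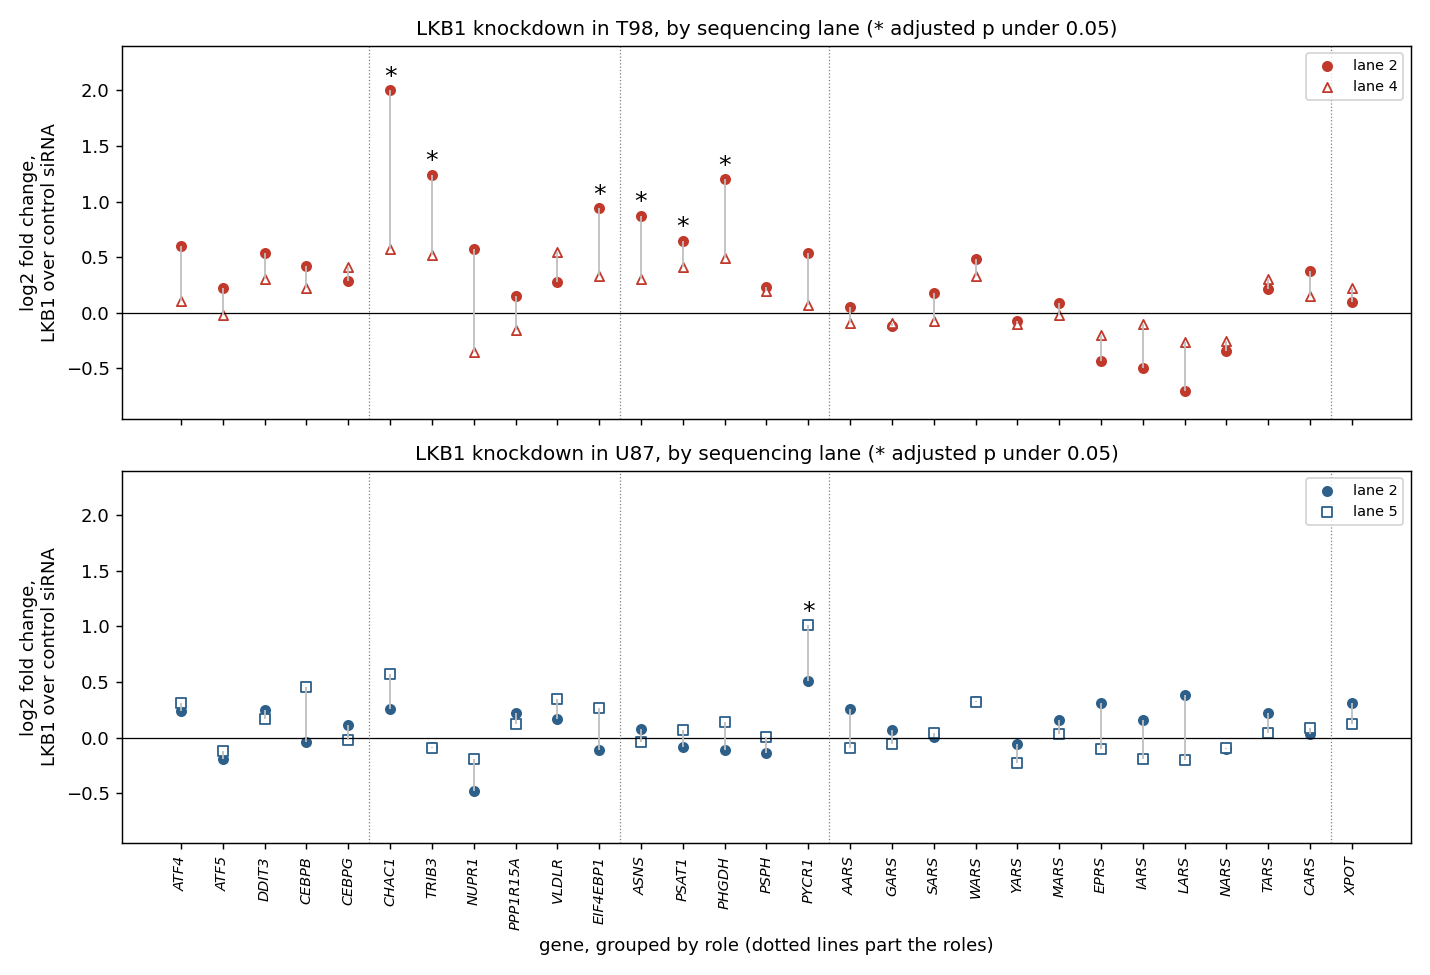
Log2 fold change of LKB1 siRNA over control siRNA for each of the 29 genes in T98 (upper panel, lane 2 as filled circles and lane 4 as open triangles) and U87 (lower panel, lane 2 as filled circles and lane 5 as open squares), with asterisks on genes past an adjusted p of 0.05. In T98 the genes with asterisks reach from 0.30 to 2.0 by lane, with lane 2 the higher in each, whereas in U87 PYCR1 alone carries one, with 0.51 on lane 2 and 1.01 on lane 5.

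None of the 5 transcription factors passed in T98 or in U87 with limma. Of all genes, 8.48% rose and 7.33% fell in T98, and 5.29% rose and 5.91% fell in U87. In T98 all 5 were positive, with a median of 0.35, and 3 were higher at an unadjusted p under 0.05. In U87 4 were positive and 1 negative, with a median of 0.21, and none had an unadjusted p under 0.05. ATF4 (NM_182810, hg19 chr22:39916569-39918691, + strand) had 20358 on lane 2 and 15462 on lane 4 in T98 LKB1 siRNA libraries, against 13411 and 14333 in T98 control libraries. In U87 it had 5373 on lane 2 and 11780 on lane 5 with LKB1 siRNA, against 4553 and 9524 with control siRNA. Each LKB1 siRNA library was above the control library of its own lane, and the groups overlapped in U87 but not in T98. The ATF4 log2 fold change was 0.36 in T98 (SE 0.14, limma adjusted p = 0.127), 0.27 in U87 (SE 0.14, adjusted p = 0.269) and 0.31 as the mean of both (SE 0.10, adjusted p = 0.0569), so ATF4 mRNA did not pass in any of them. Without the control or the LKB1 siRNA library of lane 4 the T98 value was 0.60 and passed (adjusted p = 0.0201 and 0.0179), as did a mean effect of 0.44.

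DDIT3, which encodes CHOP, a C/EBP-related factor tied to cell death under prolonged stress, had 969.7 and 675.8 in T98 LKB1 siRNA libraries (lanes 2 and 4), against 668.3 and 547.8 in the T98 controls. In U87 it had 748.7 and 2350 with LKB1 siRNA (lanes 2 and 5), against 628.4 and 2083 with control siRNA. DDIT3 was higher with LKB1 siRNA in all 4 lane pairs, and it rose as a mean effect of 0.32 (SE 0.10, limma adjusted p = 0.0477) without passing in T98 (0.42, adjusted p = 0.075) or U87 (0.21, adjusted p = 0.362). The other factors, ATF5, CEBPB and CEBPG, ranged from 0.10 to 0.35 in T98 and from -0.15 to 0.21 in U87, and none passed.

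Among the 6 feedback and effector genes, CHAC1 and TRIB3 had the largest T98 effects. CHAC1 (NM_001142776, hg19 chr15:41245636-41248717, + strand), which breaks down glutathione, had 433.7 and 140.4 in T98 LKB1 siRNA libraries (lanes 2 and 4), against 107.6 and 93.96 in T98 controls. Both LKB1 siRNA libraries were above both controls, and the lane 2 library was far above the other. The log2 fold change of CHAC1 was 1.29 (SE 0.32, 2.44-fold, limma adjusted p = 0.037), with 2.0 on lane 2 and 0.57 on lane 4. In U87 CHAC1 had 122 and 776.9 with LKB1 siRNA (lanes 2 and 5), against 101.6 and 522.4 with control siRNA, and the effect of 0.42 did not pass (SE 0.32, adjusted p = 0.45).

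TRIB3 (NM_021158, hg19 chr20:361308-378203, + strand) is a pseudokinase that binds ATF4 and restrains it. It had 5997 and 2960 in T98 LKB1 siRNA libraries (lanes 2 and 4), against 2531 and 2070 in T98 controls, so the groups did not overlap. TRIB3 rose by 0.88 in T98 (SE 0.18, 1.84-fold, limma adjusted p = 0.0215). In U87 TRIB3 had 347.1 and 1174 with LKB1 siRNA (lanes 2 and 5), against 367.6 and 1249 with control siRNA. Each U87 LKB1 siRNA library was slightly below its lane's control, and the effect was -0.09 (SE 0.18, adjusted p = 0.8).

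EIF4EBP1, which holds back cap-dependent translation by binding the cap-binding factor, had 2644 and 1807 in T98 LKB1 siRNA libraries (lanes 2 and 4), against 1380 and 1440 in T98 controls. The groups did not overlap, and EIF4EBP1 rose by 0.63 (SE 0.17, limma adjusted p = 0.049), just inside the threshold. In U87 its effect was 0.08 (SE 0.17, adjusted p = 0.815). VLDLR, a lipoprotein receptor that ATF4 is known to raise, had 221.2 and 269.1 in T98 LKB1 siRNA libraries (lanes 2 and 4), against 182.3 and 183.2 in T98 controls. It rose as a mean effect over both lines of 0.34 (SE 0.10, adjusted p = 0.0444), with 0.41 in T98 and 0.26 in U87, neither of which passed alone. PPP1R15A, the phosphatase subunit that reverses eIF2 phosphorylation, had effects of 0.00 in T98 and 0.17 in U87, and the chromatin-associated stress protein gene NUPR1 had 0.11 and -0.34, none of which passed.

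Of the enzymes of amino acid synthesis, 8 were listed and 5 measured. In T98 3 of these 5 rose, against 8.48% of all genes, and 3 of the 6 feedback and effector genes rose as well. PHGDH (NM_006623, hg19 chr1:120254419-120286849, + strand), the first enzyme of serine synthesis from glycolysis, had 8754 and 7530 in T98 LKB1 siRNA libraries (lanes 2 and 4), against 3805 and 5352 in T98 controls. Both LKB1 siRNA libraries were well above both controls, and PHGDH rose by 0.85 (SE 0.18, 1.80-fold, limma adjusted p = 0.0229). In U87 PHGDH had 1994 and 3619 with LKB1 siRNA (lanes 2 and 5), against 2159 and 3278 with control siRNA, and the effect was 0.01 (SE 0.18, adjusted p = 0.97).

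PSAT1 (NM_021154, hg19 chr9:80912059-80945009, + strand), the aminotransferase of the following step, had 5334 and 3378 in T98 LKB1 siRNA libraries (lanes 2 and 4), against 3405 and 2538 in T98 controls. Each was above its own lane's control, although the lane 4 LKB1 siRNA library lay just under the lane 2 control. PSAT1 rose by 0.53 in T98 (SE 0.12, limma adjusted p = 0.0309), and its U87 effect was -0.01 (SE 0.12, adjusted p = 0.987). PSPH, the phosphatase that ends the pathway, had 0.21 in T98 (SE 0.13, adjusted p = 0.277) and -0.06 in U87 (SE 0.13, adjusted p = 0.788). ASNS (NM_133436, hg19 chr7:97481429-97501854, - strand), which makes asparagine from aspartate, had 2987 and 1618 in T98 LKB1 siRNA libraries, against 1636 and 1312 in T98 controls. The lane 4 LKB1 siRNA library fell within the control range, and within lanes ASNS rose by 0.59 (SE 0.16, adjusted p = 0.0482), with an effect of 0.02 in U87 (SE 0.16, adjusted p = 0.953).

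PYCR1 (NM_006907, hg19 chr17:79890267-79894968, - strand), the mitochondrial enzyme of the last step to proline, was the 1 member called in U87. It had 1980 and 1282 in U87 LKB1 siRNA libraries (lanes 2 and 5), against 1389 and 633.8 in U87 controls. Each LKB1 siRNA library was above its lane's control, and the groups overlapped across lanes. PYCR1 rose by 0.76 (SE 0.17, 1.70-fold, limma adjusted p = 0.0304), a call that was lost without any 1 U87 library (log2 fold change 0.51 to 1.01). In T98 PYCR1 had 4762 and 4044 with LKB1 siRNA (lanes 2 and 4), against 3273 and 3865 with control siRNA, and the effect of 0.30 did not pass (SE 0.17, adjusted p = 0.248).

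None of the 12 tRNA synthetase genes, whose enzymes load amino acids onto tRNAs, passed in T98 or in U87. Of all genes, 8.48% rose and 7.33% fell in T98, and 5.29% rose and 5.91% fell in U87. Whether 0 of 12 differs from those shares was not tested. At an unadjusted p under 0.05 there were 1 higher and 2 lower in T98, and 1 higher and 0 lower in U87. Their log2 fold changes ranged from -0.48 (LARS, for leucine) to 0.41 (WARS, for tryptophan) in T98 and from -0.14 to 0.33 in U87, with medians of -0.05 and 0.07. WARS had 6284 and 8980 in T98 LKB1 siRNA libraries (lanes 2 and 4), against 4510 and 7131 in T98 controls, and 4760 and 6475 in U87 LKB1 siRNA libraries (lanes 2 and 5), against 3780 and 5187 in U87 controls. It was higher by a like amount in all 4 lane pairs (0.32 to 0.48), and it rose as a mean effect of 0.37 (SE 0.08, limma adjusted p = 0.0154), while just missing in T98 alone (adjusted p = 0.0505). YARS and NARS, for tyrosine and asparagine, were lower in all 4 lane pairs without passing. XPOT, which exports tRNA from the nucleus, had effects of 0.16 in T98 and 0.21 in U87 and did not pass.

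WARS is also a textbook interferon-induced gene, and the part of interferon signalling in its level was not tested. Of 9 other interferon genes none rose in either line with limma (1 in T98 and 0 in U87 at an unadjusted p under 0.05). In T98 2 of the 9 fell, against 7.33% of all genes, GBP2 by 0.65 and IFIT3 by 0.85. In U87 2 of the 9 fell, against 5.91%, GBP2 by 0.69 and MX1 by 1.03 (limma adjusted p = 0.0232, 0.029, 0.0199 and 0.021).

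As a mean over both lines 6 members rose and none fell, against 13.2% of all genes in each direction: CHAC1 (0.85), PYCR1 (0.53), PHGDH (0.43), WARS (0.37), VLDLR (0.34) and DDIT3 (0.32). In all, 9 members were higher with LKB1 siRNA in all 4 lane pairs, against 21.7% of all genes, and 2 were lower in all 4, against 21.3%. The 9 were ATF4, DDIT3, CHAC1, VLDLR, PYCR1, WARS, TARS, CARS and XPOT. In T98 alone 17 of 29 were higher on both lanes, against 38.2% of all genes, and 6 were lower on both, against 34.6%. In U87 12 of 29 were higher on both lanes, against 35.5%, and 5 were lower on both, against 37.5%. Without any 1 U87 library, where calls fell steeply over all genes too, limma kept no mean-effect call of a member. Without the T98 control or LKB1 siRNA library of lane 2 it called 2, against 17.5% and 18.2% of all genes. Without that of lane 4 it called 10, against 35.1% and 35.9% of all genes.

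Whether the knockdown effect differed between the lines was tested directly, as T98 minus U87. None of the 29 members passed with limma, against 0.476% of all genes, and 5 had an unadjusted p under 0.05, of which 4 were higher in T98. TRIB3 differed by 0.97 (SE 0.25, adjusted p = 0.155), PHGDH by 0.83 (SE 0.25, adjusted p = 0.201) and PSAT1 by 0.54 (SE 0.18, adjusted p = 0.237). PYCR1 differed in the opposite direction by -0.46 (SE 0.24, adjusted p = 0.419). The T98 calls of PHGDH, PSAT1, TRIB3, ASNS, EIF4EBP1 and CHAC1 are thus not shown to differ from U87. Without the T98 lane 4 control the count was 3, against 5.2% of all genes, and without the T98 lane 4 LKB1 siRNA library it was 5, against 7.03%.

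**Figure D2:**
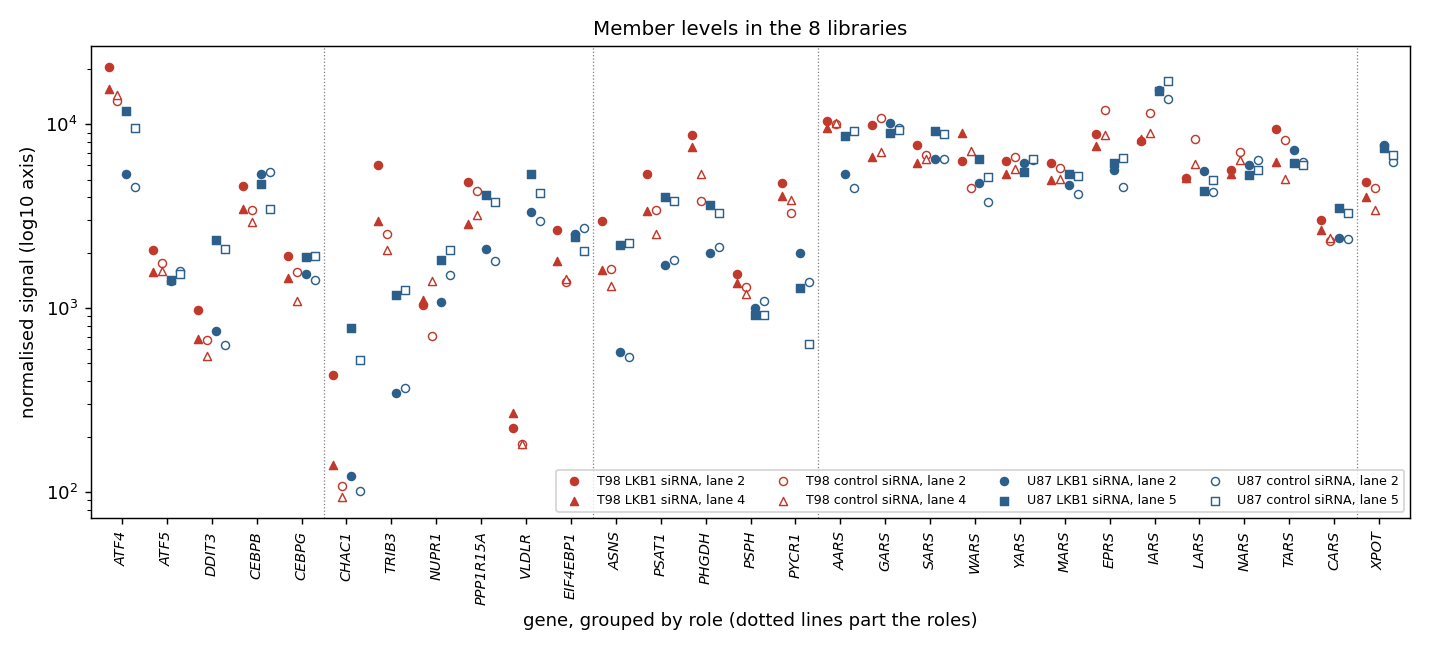
Deposited normalised signal (log10 axis) of the 29 genes in the 8 libraries, grouped by role between dotted lines, with LKB1 siRNA libraries as filled and control libraries as open symbols, T98 in red to the left of U87 in blue, circles for lane 2, triangles for lane 4 and squares for lane 5. The tRNA synthetases stay within 2310 to 17143 in all libraries, whereas CHAC1, TRIB3, ASNS and VLDLR spread widely, VLDLR from 182.3 to 5380.

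In the control libraries the 2 lines differed in a few members. T98 was higher than U87 in PYCR1 and EPRS, against 18.3% of all genes that were higher, and lower in VLDLR, EIF4EBP1 and XPOT, against 19.5% that were lower. This comparison had no lane term, because the second lane differs between the lines, so lane differences count as noise. It shares its control libraries with the knockdown comparisons. VLDLR (NM_003383, hg19 chr9:2621793-2654485, + strand) had 182.3 and 183.2 in T98 controls (lanes 2 and 4), against 2964 and 4221 in U87 controls (lanes 2 and 5), a log2 fold change of -4.27 (SE 0.29, 19.3-fold lower in T98, limma adjusted p = 9.2e-05). The lines were far apart at VLDLR, well beyond the difference between libraries of 1 line.

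PYCR1 had 3273 and 3865 in T98 controls, against 1389 and 633.8 in U87 controls, and was higher in T98 by 1.92 (SE 0.38, 3.79-fold, limma adjusted p = 0.0069). EPRS, which charges both glutamate and proline tRNAs, had 11895 and 8753 in T98 controls, against 4527 and 6570 in U87 controls, a difference of 0.90 (SE 0.25, adjusted p = 0.0238). EIF4EBP1 was lower in T98 by 0.74 (1380 and 1440 in T98 controls, against 2726 and 2035 in U87 controls, adjusted p = 0.044) and XPOT by 0.72 (4507 and 3423, against 6193 and 6791, adjusted p = 0.0257).

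ATF4 itself was higher in both T98 controls, with 13411 and 14333, than in the U87 controls, with 4553 and 9524. The difference of 1.07 (SE 0.44) did not pass (limma adjusted p = 0.0934), and leaving out 1 library moved it from 0.54 (without the U87 lane 2 control) to 1.61 (without the U87 lane 5 control, adjusted p = 0.0392). The fit with lane terms (replicate block), which estimates the difference at lane 2 from all 8 libraries, gave 1.70 (adjusted p = 0.000121). That fit called 16 of 29 members in place of 5, against 63.3% of all genes. TRIB3 had 2531 and 2070 in T98 controls, against 367.6 and 1249 in U87 controls, a difference of 1.75 that did not pass either (SE 0.72, adjusted p = 0.0902). The calls of VLDLR and PYCR1 held without any 1 of the 8 libraries. EPRS was lost without the lane 2 control of T98 or of U87 (adjusted p = 0.138 in both). XPOT was lost without the T98 lane 4 control or either U87 control (adjusted p = 0.134, 0.0737 and 0.104). EIF4EBP1 was lost without any 1 T98 or U87 control except the lane 5 one, or without either U87 LKB1 siRNA library (adjusted p = 0.0681 to 0.224).

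**Figure D3:**
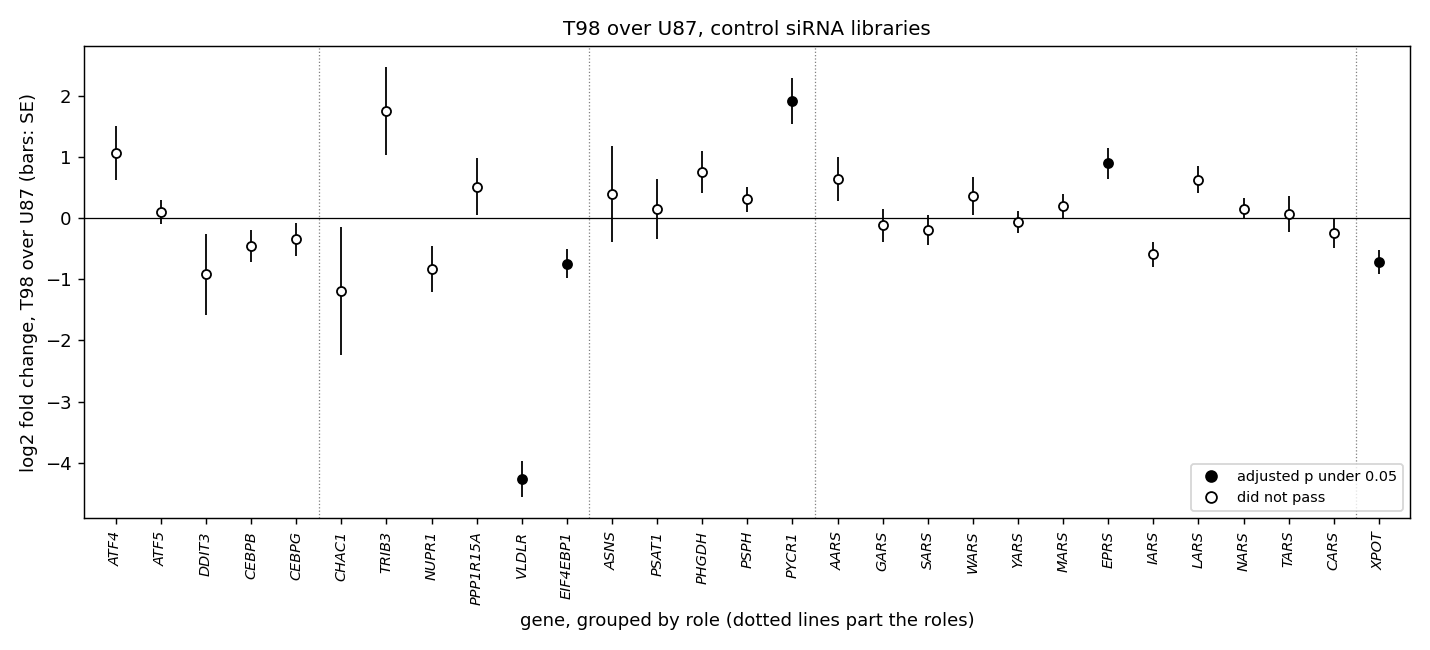
Log2 fold change of T98 over U87 control siRNA libraries for the 29 genes, with SE bars, filled where the adjusted p is under 0.05 and open otherwise. VLDLR lies at -4.27, PYCR1 at 1.92, and the wide bars of CHAC1, ASNS and TRIB3 (SE 1.04, 0.78 and 0.72) belong to genes that varied widely between the libraries of U87.

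Per kilobase of transcript, which makes genes comparable, ATF4 had the highest mean signal of the 5 transcription factors in every group: 8849 in T98 LKB1 siRNA, 6854 in T98 control, 4237 in U87 LKB1 siRNA and 3477 in U87 control libraries. CEBPB followed with 1906 and 1514 in T98 and 2392 and 2119 in U87, in the same order of groups. CHAC1 was the lowest of the feedback and effector genes in U87 (287.5 with LKB1 siRNA and 199.6 with control siRNA per kilobase), and VLDLR was the lowest in T98 (67.07 and 50). Among the synthetases, GARS for glycine was highest in both control groups, at 3232 in T98 and 3409 in U87 per kilobase, with IARS at 3345 next to it in U87. CARS for cysteine was lowest in T98 controls (826.2) and LARS in U87 controls (945.7). No spread between libraries was tested for these orders.

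Within U87, the members differed more between the libraries of lane 5 and lane 2 than between siRNAs, and this was seen alike with LKB1 and control siRNA. This comparison was chosen after its values were seen. Of the 29 genes, 13 were higher on lane 5 and 1 was lower, which is 44.8% higher, against 12.8% of all genes higher and 11.4% lower. ATF4 had 11780 on lane 5 and 5373 on lane 2 with LKB1 siRNA, and 9524 on lane 5 and 4553 on lane 2 with control siRNA, a difference of 1.10 (SE 0.14, 2.14-fold, limma adjusted p = 0.00306). CHAC1 was higher on lane 5 by 2.51 (SE 0.32, adjusted p = 0.0028), ASNS by 1.99 (SE 0.16, adjusted p = 0.000592), TRIB3 by 1.76 (SE 0.18, adjusted p = 0.0013) and DDIT3 by 1.69 (SE 0.14, adjusted p = 0.000592). No lane 5 library of U87 overlapped a lane 2 library in these 5 genes.

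The serine enzymes followed in U87, with PSAT1 higher on lane 5 by 1.16 and PHGDH by 0.73, as did PPP1R15A by 1.02 and VLDLR by 0.60. PSPH, at -0.19, did not pass. Of the 12 synthetases 4 were higher on lane 5, AARS by 0.86, CARS by 0.50, SARS by 0.48 and WARS by 0.45, and the others ranged from -0.19 to 0.33. PYCR1 alone was lower, by 0.88 (SE 0.17, limma adjusted p = 0.0115), so on this axis it went against PHGDH and PSAT1. ASNS showed the pattern plainly, with 2192 on lane 5 and 575.2 on lane 2 with LKB1 siRNA, and 2255 and 543.9 with control siRNA, while the siRNA made a difference of 0.02. Without any 1 U87 library, in each case with 1 lane difference left in that line, 0 to 2 members passed, and the differences of ATF4, CHAC1, ASNS, TRIB3 and DDIT3 stayed between 1.06 and 2.66.

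**Figure D4:**
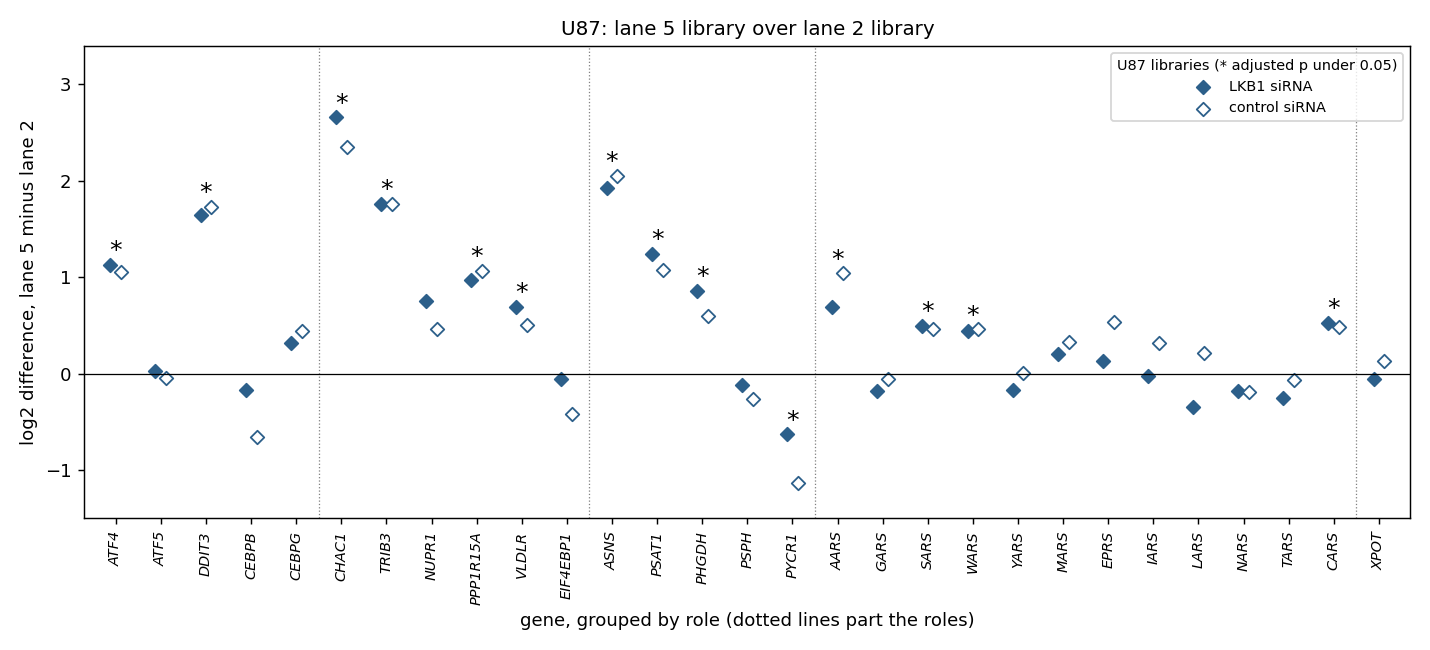
Log2 difference of the lane 5 over the lane 2 library of U87 for the 29 genes, with LKB1 siRNA as filled and control siRNA as open diamonds, and asterisks at an adjusted p under 0.05. Filled and open diamonds coincide for TRIB3, at 1.76 in both, and lie further apart for others, as for LARS (-0.35 and 0.22) and PYCR1 (-0.63 and -1.13). CHAC1, ASNS, TRIB3 and DDIT3 stand highest.

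Among 23 other known ATF4 targets, 15 were higher on lane 5 of U87 and 3 were lower, against the 12.8% and 11.4% of all genes given above. The 3 lower were the C/EBP gene CEBPD by -1.78, the amino acid transporter gene SLC38A2 by -0.56 and the proline synthesis gene ALDH18A1 by -0.50. The stress cytokine gene GDF15 was higher by 3.48, the cystathionine beta-synthase gene CBS by 2.75 and the leucine transporter gene SLC7A5 by 2.56 (limma adjusted p = 0.000118, 0.000263 and 8.78e-05). GDF15 had 17311 on lane 5 and 1843 on lane 2 with LKB1 siRNA, and 11448 and 860.7 with control siRNA, so the lanes lay further apart than the siRNAs. The lane 5 libraries were the deeper in U87, at 38019174 reads with LKB1 siRNA and 32179213 with control siRNA, against 25223747 and 30930010 on lane 2. On lane 5 the macrophage marker CD68 was also higher by 0.77, the only call among 4 tested markers of other cells (2 positive and 2 negative). VIM was lower by 0.82, the only call among 5 tested glial and glioma markers (3 positive and 2 negative, median 0.46). The 7 markers of other cells summed to 12120 to 23031 over the U87 libraries, nearly all of it CD68. The part of depth or of these markers in the result was not tested.

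In T98 the lane differences of the members were smaller and mostly negative. On lane 4, 7 members were lower than on lane 2 and 1 was higher, against 10.4% and 14.3% of all genes. The 7 were ASNS, TRIB3, PSAT1, CEBPG, PPP1R15A, GARS and TARS, by 0.46 to 0.65 on the log2 scale, and the 1 was WARS, by 0.59. ATF4 differed by -0.15 (SE 0.14, limma adjusted p = 0.475) and CHAC1 by -0.91 (SE 0.32, adjusted p = 0.0762). Without any 1 U87 library none of these passed (8 or 9 at an unadjusted p under 0.05), and without either T98 LKB1 siRNA library 4 members passed. The CHAC1 lane difference in T98 was -1.62 with LKB1 siRNA and -0.19 with control siRNA. In T98 the lane 4 libraries were again the deeper, at 33150108 reads with LKB1 siRNA and 32518120 with control siRNA, against 29031344 and 30799802 on lane 2. Over the 29 genes, the library with the highest median, relative to each gene's mean over the 8 libraries, was T98 LKB1 siRNA on lane 2 (0.29 on the log2 scale), and the lowest was U87 control on lane 2 (-0.20).

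The other known ATF4 targets did not all follow the members after knockdown. Of the 23, 7 rose and 2 fell in T98, against 8.48% and 7.33% of all genes, and 4 rose and 2 fell in U87, against 5.29% and 5.91%. GDF15 rose by 1.82 in T98 and 0.85 in U87, and the glycine transporter gene SLC6A9 rose by 1.23 and 1.03 (limma adjusted p = 0.00405, 0.0304, 0.00681 and 0.00831). The mTORC1 inhibitor gene DDIT4 rose in T98 by 0.98 and the alanine aminotransferase gene GPT2 in U87 by 0.67. The growth arrest gene GADD45A fell in both lines by 0.57 and 0.56, and the cystine transporter gene SLC7A11 fell in T98 by 0.95 (adjusted p = 0.0357, 0.0448 and 0.0397). SLC7A11 had 12570 and 20512 in T98 LKB1 siRNA libraries (lanes 2 and 4), against 34473 and 27924 in T98 controls, so it was lower in the libraries in which CHAC1 and TRIB3 were higher. CEBPD fell in U87 by 1.17 (adjusted p = 0.0198).

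Upstream of ATF4, 15 genes were taken, for the eIF2 kinases, eIF2 and its exchange factor, with PPP1R15B, GCN1L1 and IMPACT. In T98 1 of them rose (6.67%, against 8.48% of all genes), EIF2S3 by 0.46 (limma adjusted p = 0.0355), and none fell. No call was made in U87, where 2 had an unadjusted p under 0.05. Among 14 endoplasmic reticulum stress genes outside the ATF4 branch, 6 rose and 4 fell in T98, against 8.48% and 7.33% of all genes, and 5 rose and 1 fell in U87, against 5.29% and 5.91%. MANF, a secreted reticulum protein, rose by 0.95 in T98 and 0.70 in U87, the disulfide isomerase gene PDIA4 rose by 0.66 and 0.73, and the chaperone gene HSPA5 rose by 0.86 in U87 (adjusted p = 0.00601, 0.0112, 0.0143, 0.00867 and 0.0126). HSPA5 had 99947 and 110241 in U87 LKB1 siRNA libraries (lanes 2 and 5), against 47330 and 70183 in U87 controls, and 69126 and 54406 in T98 LKB1 siRNA libraries (lanes 2 and 4), against 39891 and 33731 in T98 controls. The siRNA groups did not overlap in either line. The degradation adaptor gene SEL1L fell by 1.02 in T98 and 1.12 in U87, the cochaperone gene DNAJC3 by 1.01 in T98, and the sensor gene ATF6 by 0.62 in T98.

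Of 14 tested genes of one-carbon, serine and glycine metabolism beyond the members, 1 rose and 1 fell in T98, against 8.48% and 7.33% of all genes. In U87 1 rose and 5 fell (7.14% and 35.7%), against 5.29% and 5.91% of all genes. The same shares of all genes apply to the other lists of this paragraph. TYMS, which makes thymidylate, fell by 0.51 in T98 and 1.19 in U87, and SHMT1, the cytosolic serine hydroxymethyltransferase, fell in U87 by 0.74 (limma adjusted p = 0.0385, 0.0029 and 0.0117). Of 12 tested proline and glutamate genes beyond PYCR1, none passed in T98 (1 higher and 1 lower at an unadjusted p under 0.05) and GPT2 alone rose in U87. Among 11 other cytosolic synthetases and scaffold genes, EEF1E1 rose by 0.54 and RARS fell by 0.42 in T98, and none passed in U87, even at an unadjusted p under 0.05. Among 17 mitochondrial synthetases, 1 rose and 1 fell in T98, and 1 rose and none fell in U87. SARS2 rose by 0.83 in T98 and EARS2 rose by 0.60 in U87 (limma adjusted p = 0.0218 and 0.0427).

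The TruSeq RNA kit used (version V2) keeps no strand, and 11 of the 29 members have an exon overlapped by a gene on the opposite strand in GENCODE, and 11 have a named pseudogene. Both ATF4 and ASNS are among those with pseudogenes, as is PSAT1, so reads shared with such copies cannot be assigned to 1 gene. MARS and DDIT3 overlap each other on opposite strands, at chr12:57881736-57910438 and chr12:57910371-57914300 in hg19. Among the members called in T98, CHAC1, TRIB3 and PHGDH have neither an overlap nor a named pseudogene there.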

How the data were processed

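The deposited table holds 1 signal value per RefSeq transcript and library, made by the authors. The submitters' processing notes name TopHat2 2.0.8b, edgeR and hg19/GRCh37, with no read counter. The authors' deposited signal was found to equal pseudo-counts at a common library size. Inverting that function returned whole reads within 0.05 for 99.99% to 100% of values, which gave the depths. Where a symbol had more than 1 transcript, the one of highest mean was used. Lengths and hg19 coordinates (counted from 1) are the table's, promoters are RefSeq's on GRCh38.p14, and no coordinates were converted.

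A gene was tested where its value reached 10 in at least 2 libraries. The test was limma-trend (limma 3.58.1 in R 4.3.3), two-sided, on log2(value + 1) of all 8 libraries, and p-values were adjusted by Benjamini-Hochberg over every gene tested. The knockdown fit had a lane term for each line (2 residual degrees of freedom). Lane differences correlated across genes at 0.72 between the groups of T98 and at 0.81 between those of U87, but only at 0.12 to 0.18 across lines. The comparison of control libraries had no lane term (4 residual degrees of freedom). The procedure was also run on simulated data, whose spread was set and not estimated from these libraries. That run gives no support to any call here. Alternatives were no lane term, a pseudocount of 5, no filter, quantile normalization and leaving out each library.

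The members and gene lists, and the choice of a lane term, were made with earlier results of these data known. The text names members past the threshold in any comparison, ATF4, members that define a role, and from each list up to 3 genes per direction with the smallest adjusted p. Others are named after their values were seen. Some genes that met this rule are not reported here.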

Additional observations from a re-analysis of the deposited data

Results flagged for a closer look

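TRIB3, the pseudokinase that restrains ATF4, was picked out because its knockdown effect had opposite signs in the lines. It was higher with LKB1 siRNA on both T98 lanes (1.24 and 0.52) and slightly lower on both U87 lanes (-0.08 and -0.09). The U87 effect of -0.09 (SE 0.18) did not pass (limma adjusted p = 0.8). The difference of the effects, T98 minus U87, was 0.97 (limma adjusted p = 0.155), which does not pass.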

How the results depend on the processing

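With 2 libraries a group, the calls rest on few degrees of freedom, and lane cannot be told apart from duplicate. For the members called, the limma counts reported were 6 in T98, 1 in U87, 6 for the mean, 0 for the difference, 5 between the lines, 14 between U87 lanes and 8 between T98 lanes. Without a lane term (no replicate block) the T98, U87 and mean counts were each 0 (2, 0 and 0 at an unadjusted p under 0.05). The fit with the replicate block, which estimates the lines' difference at lane 2, gave 16 between the lines. Without the filter on low values the counts were 0 in T98, 0 in U87, 0 for the mean (12, 2 and 9 at an unadjusted p under 0.05), 3 between the lines, 2 between U87 lanes and 0 between T98 lanes (12 unadjusted). The cause was not tested. Leaving out 1 library gave 0 to 11 in T98, 0 to 1 in U87, 0 to 10 for the mean, 0 to 5 for the difference, 2 to 7 between the lines, 0 to 17 between U87 lanes and 0 to 8 between T98 lanes. A library left out takes with it its line's only residual degree of freedom in the lane fit. The ATF4 difference of effects, 0.08, ranged from -0.16 (without either lane 2 library of T98) to 0.33. Under a pseudocount of 5 and quantile normalization every count was within 1.5 times of the reported value, and of 48 named effects under each, 48 and 46 stayed on their side of the threshold. No sign changed for a named effect under these or without the filter. Over all genes the counts, 2258 in T98, 1599 in U87 and 3765 for the mean, were 4, 8 and 265 without a lane term and each 0 without the filter, where the lane differences gave 568 in U87 (from 3454) and 0 in T98 (from 3526). Between the lines they were 9037 with the replicate block, against 5386. The edgeR and DESeq2 alternatives were not run, because the reads recovered for some libraries missed the criterion for whole reads.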
